A study of Mus musculus with 10 samples.

Results

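The genes described here encode ion channels, ion and lipid pumps, and the calcium entry machinery of mouse regulatory T cells (Treg cells), the CD4+ T cells that restrain immune responses. They were taken by symbol from the deposited table: all rows whose symbol begins with Kcn, Atp1a, Atp1b, Atp2a to Atp2c, Atp8, Atp11, Trpc, Trpm or Trpv with a digit, Orai, Stim1 or Stim2, Itpr1 to Itpr3, Cacn, Clcn, P2rx, Piezo or Mctp, leaving out Kcnq1ot1 and the Itprip genes. This gave 94 of 13252 genes, of which 59 averaged at least 10 normalized counts across all 10 libraries and were tested. The rule reads gene symbols only.

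RNA sequencing had been done on 2 sorted populations of mouse Treg cells with 5 libraries each: the Helios+ cells were CD4+RFP+GFP+, and the Helios− cells were CD4+RFP+GFP−. By the labels, GFP marks Helios, a transcription factor of the Ikaros family encoded by Ikzf2, while the gene marked by RFP is not named there. The design text of the series speaks of wild-type and knockout cells, but the samples are labelled as sorted populations, so no difference is described here as an effect of removing Helios. No strain, age or treatment is given in the labels, nor whether the 5 libraries of a group came from separate mice, and the p-values therefore reflect the spread among these libraries, which may be technical.

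As background, a T cell that meets its antigen makes the messenger IP3, which opens IP3 receptors and empties the calcium store of the endoplasmic reticulum. STIM proteins in that membrane sense the loss and open ORAI channels in the plasma membrane, and the calcium that enters activates calcineurin and the NFAT transcription factors. Potassium channels keep the membrane voltage negative, which holds up the driving force for calcium, while pumps remove calcium and restore sodium and potassium gradients.

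The sorted label held in the RNA: Ikzf2 had normalized counts of 9667 to 10906 in Helios+ libraries and 418 to 572 in Helios− libraries. Foxp3, which defines Treg cells, ranged from 3284 to 3764 in Helios+ and from 3296 to 3833 in Helios− libraries, and Cd4, Cd3e and Cd3g were not called either. Of the 7 genes of the Treg list, limma called 3 higher (Ikzf2, Il2ra and Ctla4), or 5 with the replicate block described below. Il2ra, a receptor subunit for interleukin typical of Treg cells, had 4648 ± 397 in Helios+ and 3900 ± 269 in Helios− libraries (log2 change 0.25 ± 0.08 (SE), limma adjusted p = 0.0249). The inhibitory receptor gene Ctla4 had 1533 ± 283 in Helios+ and 1045 ± 313 in Helios− libraries (log2 change 0.58 ± 0.18 (SE), limma adjusted p = 0.0322), and the groups overlapped for both. Reads recovered per library numbered 5016661 to 6948692 in Helios+ and 4872348 to 6815851 in Helios−. Summed markers of B cells ran from 1583 to 2225 in Helios+ and from 1818 to 2565 in Helios− libraries, with 0 of 8 tested markers higher by limma, edgeR or DESeq2 (0 at an unadjusted p under 0.05) and 1, Ebf1, lower, or 4 lower with the block. The most abundant were Cd22 with 408 ± 101 in Helios+ and 472 ± 121 in Helios− libraries and Ms4a1 with 296 ± 47.1 in Helios+ and 333 ± 35.4 in Helios− libraries. Summed markers of macrophages and monocytes ran from 299 to 590 in Helios+ and from 223 to 363 in Helios− libraries. There, 1 of 6 tested markers was called, Csf1r at 61.6 ± 7.3 in Helios+ and 36.9 ± 5.84 in Helios− libraries (SD, n = 5 each), or 2 with the block, Lyz2 with Csf1r, while Cd14 stayed near 0. The most abundant were Lyz2 with 188 ± 75.9 in Helios+ and 142 ± 32.8 in Helios− libraries and Itgam with 48.5 ± 7.61 in Helios+ and 52.1 ± 18.2 in Helios− libraries. Summed NK cell markers were 125 to 154 in Helios+ and 121 to 158 in Helios− libraries, and those of CD8 T cells 311 to 377 in Helios+ and 347 to 413 in Helios− libraries. Summed dendritic cell markers were 82.0 to 106 in Helios+ and 59.4 to 98.3 in Helios− libraries, and those of erythroid cells and platelets 9.2 to 43.0 in Helios+ and 22.2 to 56.2 in Helios− libraries. The most abundant markers of these 4 lists were Eomes and Klrb1c (NK), Cd8b1 and Cd8a (CD8), Siglech and Itgax (dendritic) and Itga2b and Alas2 (erythroid and platelet), and limma called none of them. Limma called 1 other marker, Zbtb46 of dendritic cells, which was higher, and with the block 1 CD8 T cell marker was lower. Zbtb46 had means of 14.9 in Helios+ and 6.7 in Helios− libraries and passed the filter only through its Helios+ values. The part of these cells in any result was not tested. In these bulk libraries, fewer cells of a type and less RNA per cell cannot be told apart.

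Channel and pump genes differed in both directions between the populations. Of the 59 tested members, 11 were higher and 11 were lower in Helios+ cells at a Benjamini-Hochberg adjusted p under 0.05 in limma's test over all 10718 genes tested, and 37 were not called. Over all genes, 24.8% were called, 14.1% higher and 10.7% lower, against 37.3% of the tested members, 18.6% in each direction. Counts of calls in single families, given below, were not tested against these shares. Values of the groups did not overlap for 10 members that were higher and 8 that were lower, and over all genes this held for 19.5%, made up of 11.2% higher and 8.37% lower. A call with a change of at least 2-fold was made for 5 members higher and 5 lower, against 5.24% and 1.12% of all genes. Kcnj16 is among the lower members in each of these counts, although it passed the filter on the mean only through its Helios− values. The median log2 change was −0.10 over the tested members and −0.02 over all genes. Replicates with the same number deviated together, and with the number as a block 12 members were called higher and 18 lower, against 18.9% and 18.5% of all genes, including all 22 members called without it. A log2 change here is on the scale of log2(normalized count + 1), Helios+ minus Helios−, and this scale makes changes of low genes look smaller than they are. Below, values of single libraries are normalized counts of replicates 1 to 5 in that order, and values with ± are means of normalized counts with the SD of 5 libraries, unless another scale is named.

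**Figure D1:**
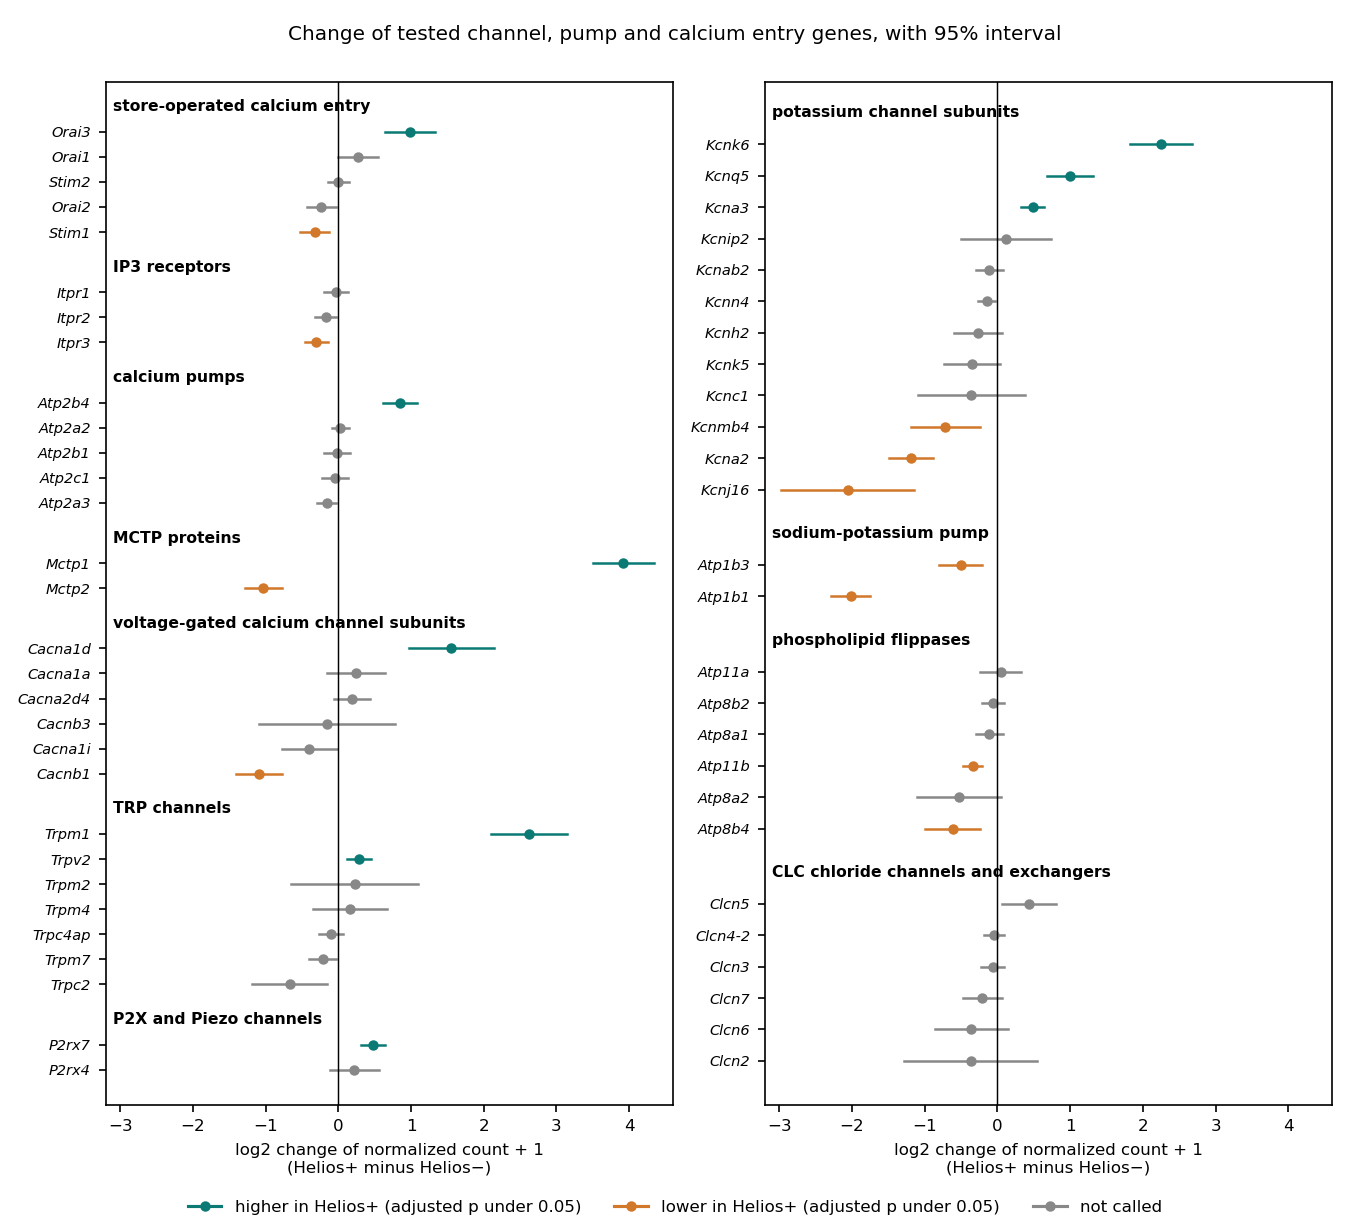
Tested members (56 are drawn) grouped by role, with the log2 change between Helios+ and Helios− (the first minus the second, on normalized count + 1) on the horizontal axis and 95% intervals from limma on 5 libraries per group. Mctp1 stands farthest to the right at 3.92 and Kcnj16 and Atp1b1 farthest to the left at −2.06 and −2.02, and most roles hold members on both sides of 0. Kcnj16 passed the filter on the mean only through its Helios− values.

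Within the store-operated entry machinery, Orai3 was higher and Stim1 was lower in Helios+ cells, while Stim2, Orai1 and Orai2 were not called. Orai3 (GRCm38 chromosome 7, 127769815 to 127775150, plus strand) encodes an ORAI channel subunit. Its normalized counts were 84.9, 85.3, 94.9, 85.5 and 123 in Helios+ libraries 1 to 5, against 44.5, 48.7, 52.4, 57.3 and 34.1 in Helios− libraries 1 to 5. The groups did not overlap and the Helios+ value of replicate 5 stood above the other 4 (log2 change 0.99 ± 0.16 (SE), limma adjusted p = 2.55e-04). Stim1 (chromosome 7, 102267806 to 102437319, plus strand), a store calcium sensor, had counts of 515, 674, 697, 570.3 and 643 in Helios+ libraries, against 686, 735, 904, 774 and 775 in Helios− libraries. Each Helios+ library was below the Helios− library of its own number, although the groups overlapped, since Helios+ replicate 3 exceeded Helios− replicate 1 (log2 change −0.32 ± 0.09 (SE), limma adjusted p = 0.0177). This call was lost without replicate 4 of both groups (adjusted p = 0.0952), without replicate 5 of both (adjusted p = 0.0612) and without Helios+ replicate 4 (adjusted p = 0.0514).

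Stim2, the other store sensor, was 873 ± 69.1 in Helios+ and 872 ± 46.8 in Helios− libraries (SD, n = 5 each), and the 95% interval of its log2 change ran from −0.15 to 0.15. Orai1, the channel subunit on which calcium entry in T cells mainly depends, had 191 ± 28.9 in Helios+ and 158 ± 26.6 in Helios− libraries (limma adjusted p = 0.138, or 0.0288 with the replicate block, then called higher). Leaving out Helios− replicate 3 also gave a call (adjusted p = 0.0478). Orai2 had 495 ± 64.6 in Helios+ and 581 ± 59.9 in Helios− libraries (limma adjusted p = 0.088, or 0.00653 with the block, then called lower). Without Helios+ replicate 5, whose Orai2 count of 607 stood above 456 to 494 in the other 4, Orai2 was called lower without the block too (adjusted p = 0.0181), as it was without Helios− replicate 2 (adjusted p = 0.0415) and without replicate 5 of both groups (adjusted p = 0.0487). Normalized counts per kilobase of annotated exon allow levels to be compared between genes. They were 83.2 ± 12.6 in Helios+ and 68.9 ± 11.6 in Helios− for Orai1 and 81.5 ± 10.6 in Helios+ and 95.6 ± 9.86 in Helios− for Orai2, and lay within each other's spread in Helios+ cells. Orai3 had the lowest level of the 3 in both populations, at 44.2 ± 7.61 in Helios+ and 22.1 ± 4.12 in Helios−. Stim2 exceeded Stim1 per kilobase in both, at 170.0 ± 13.5 in Helios+ and 169.9 ± 9.12 in Helios− for Stim2 and 59.8 ± 7.3 in Helios+ and 74.7 ± 7.81 in Helios− for Stim1.

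The composition of the machinery within a library is given as a description. Orai3 made up 12.1% of the summed normalized counts of the 3 Orai genes in Helios+ libraries (range 10.8% to 13.7%) and 6.07% in Helios− libraries (4.12% to 7.20%). Stim1 made up 41.5% of Stim1 and Stim2 in Helios+ libraries (38.5% to 44.8%) and 47.0% in Helios− libraries (no library below 45.5%). Neither share overlapped between the populations.

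Upstream of STIM, the IP3 receptors were abundant, and 1 of 3 was called. Itpr3 was lower in Helios+ cells, with counts of 1771, 1567, 1527, 1635 and 1611 in Helios+ libraries, against 2301, 1926, 1777, 2121 and 1914 in Helios− libraries. The groups did not overlap, by a margin of a few counts between Helios+ replicate 1 and Helios− replicate 3 (log2 change −0.30 ± 0.08 (SE), limma adjusted p = 0.00716). The call was lost under quantile normalization (adjusted p = 0.0594), under cyclic loess normalization (adjusted p = 0.084) and without replicate 4 of both groups (adjusted p = 0.0502). Itpr2 had 4215 ± 226 in Helios+ and 4755 ± 314 in Helios− libraries and was not called (limma adjusted p = 0.0818), but was called lower with the replicate block (adjusted p = 0.00481) and without Helios− replicate 3 (adjusted p = 0.0353). Itpr1 had 1409 ± 127 in Helios+ and 1437 ± 111 in Helios− libraries, with a 95% interval of the log2 change from −0.19 to 0.13. Per kilobase of exon the order was Itpr2, then Itpr3, then Itpr1 in both populations, at 285 ± 15.3 in Helios+ and 321 ± 21.2 in Helios− for Itpr2, 179.9 ± 10.3 in Helios+ and 223 ± 22.7 in Helios− for Itpr3 and 76.9 ± 6.92 in Helios+ and 78.4 ± 6.07 in Helios− for Itpr1.

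Of the calcium pumps, Atp2b4 was higher in Helios+ cells and the other 4 tested were not called. Atp2b4 (GRCm38 chromosome 1, 133699457 to 133801041, minus strand) encodes a plasma membrane pump that expels calcium from the cell. It had 1093, 1128, 967, 939 and 1096 in Helios+ libraries, against 720.4, 676, 516, 469 and 542 in Helios− libraries. Every Helios+ library lay above every Helios− library, and the mean was 1.79 times that of Helios− (log2 change 0.85 ± 0.11 (SE), limma adjusted p = 2.88e-05). Atp2b1, the other plasma membrane pump detected, had 1975 ± 107 in Helios+ and 2007 ± 273 in Helios− libraries (95% interval of the log2 change −0.20 to 0.17). The share of Atp2b4 in the sum of both was 34.6% in Helios+ libraries (32.2% to 37.5%) and 22.5% in Helios− libraries (19.5% to 23.6%).

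The pumps that refill the store showed no call. Atp2a2, which loads calcium into the endoplasmic reticulum, had 943 ± 39.5 in Helios+ and 923 ± 20.8 in Helios− libraries, with a 95% interval of the log2 change from −0.09 to 0.15. Atp2a3, the store pump typical of blood cells, had 1319 ± 66.3 in Helios+ and 1473 ± 87.2 in Helios− libraries and was not called (limma adjusted p = 0.0811). It was called lower with the replicate block (adjusted p = 0.0088), by DESeq2 (adjusted p = 0.0442) and by limma without Helios− replicate 1 (adjusted p = 0.045). Atp2c1, a calcium and manganese pump of the Golgi, had 389 ± 32.4 in Helios+ and 401 ± 37.5 in Helios− libraries. The muscle pump Atp2a1 was under the filter.

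Mctp1 showed the largest change of all tested members, and its relative Mctp2 moved the other way. MCTP proteins are anchored in membranes of the endoplasmic reticulum and carry several calcium-binding C2 domains. Mctp1 (GRCm38 chromosome 13, 76384535 to 77031810, plus strand) had 195, 229, 191, 219.6 and 262 in Helios+ libraries, against 16.4, 20.1, 10.9, 13.7 and 8.76 in Helios− libraries. The lowest Helios+ library was far above the highest Helios− library, and the Helios+ mean was 15.7 times that of Helios− (log2 change 3.92 ± 0.19 (SE), limma adjusted p = 1.37e-09). Mctp2 (GRCm38 chromosome 7, 72077830 to 72306608, minus strand) had 156, 111, 118, 121 and 133 in Helios+ libraries, against 241, 231, 232, 294 and 314 in Helios− libraries. Here every Helios+ library was below every Helios− library (log2 change −1.03 ± 0.12 (SE), limma adjusted p = 8.66e-06). Mctp1 therefore held 63.1% of the counts of the pair in Helios+ libraries (55.5% to 67.3%) and 5.21% in Helios− libraries (2.71% to 8.02%).

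**Figure D2:**
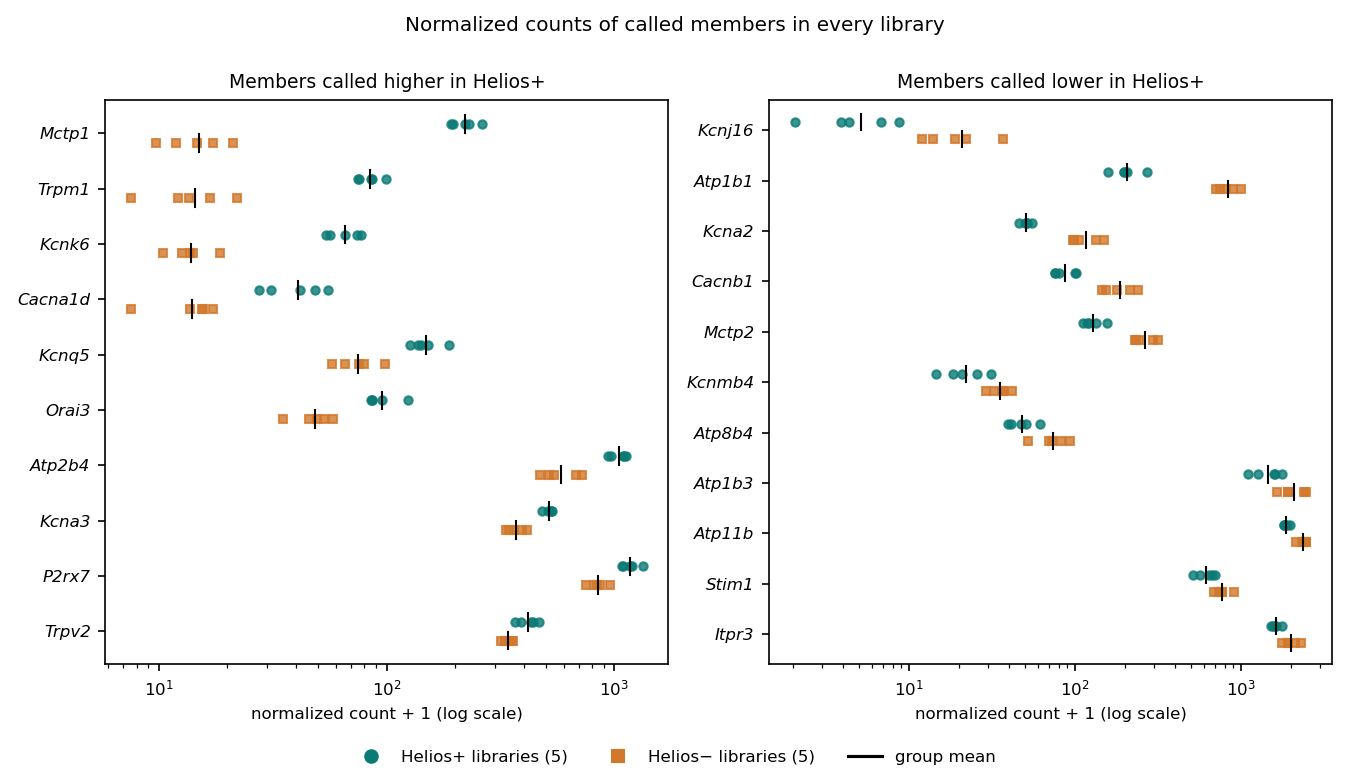
Normalized count + 1 (log scale, horizontal axis) of 21 called members in every library (5 Helios+, 5 Helios−), with group means as black bars. Mctp1, Trpm1 and Kcnk6 show wide gaps between the populations, while Kcnmb4, Atp8b4, Atp1b3 and Stim1 overlap.

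RefSeq promoters (GRCm38.p6, from 250 bases before to 50 bases after a gene start, read in the direction of the gene) are shown for Mctp1, for its oppositely changed relative, for the abundant calcium pump Atp2b4 and for Atp1b1, the member with the largest fall among those with a mean of at least 50. They lie at chr13:76579347-76579646, plus strand (Mctp1), chr7:72306546-72306845, minus strand (Mctp2), chr1:133753698-133753997, minus strand (Atp2b4) and chr1:164458306-164458605, minus strand (Atp1b1). Capitals mark GGGAA, the core of the sequence bound by Ikaros family proteins, or its reverse complement. The starts used for Mctp1 and Atp2b4 lie inside the GENCODE gene bounds given above and not at their outer end.
Mctp1: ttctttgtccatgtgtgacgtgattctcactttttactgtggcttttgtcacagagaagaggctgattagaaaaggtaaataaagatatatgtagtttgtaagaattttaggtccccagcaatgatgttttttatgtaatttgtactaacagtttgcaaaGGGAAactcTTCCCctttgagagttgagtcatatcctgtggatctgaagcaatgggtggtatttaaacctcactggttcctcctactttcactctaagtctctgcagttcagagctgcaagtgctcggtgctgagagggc
Mctp2: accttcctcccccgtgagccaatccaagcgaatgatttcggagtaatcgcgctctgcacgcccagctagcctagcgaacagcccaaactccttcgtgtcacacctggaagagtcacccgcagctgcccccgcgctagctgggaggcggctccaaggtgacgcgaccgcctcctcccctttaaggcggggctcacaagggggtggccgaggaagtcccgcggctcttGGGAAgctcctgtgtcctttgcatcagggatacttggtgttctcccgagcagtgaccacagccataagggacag
Atp2b4: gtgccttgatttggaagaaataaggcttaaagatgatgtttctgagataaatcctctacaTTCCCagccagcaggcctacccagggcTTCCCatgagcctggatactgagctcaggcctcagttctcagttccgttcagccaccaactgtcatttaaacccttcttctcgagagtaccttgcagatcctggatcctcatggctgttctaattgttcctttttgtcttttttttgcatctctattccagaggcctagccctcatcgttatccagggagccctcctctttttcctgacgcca
Atp1b1: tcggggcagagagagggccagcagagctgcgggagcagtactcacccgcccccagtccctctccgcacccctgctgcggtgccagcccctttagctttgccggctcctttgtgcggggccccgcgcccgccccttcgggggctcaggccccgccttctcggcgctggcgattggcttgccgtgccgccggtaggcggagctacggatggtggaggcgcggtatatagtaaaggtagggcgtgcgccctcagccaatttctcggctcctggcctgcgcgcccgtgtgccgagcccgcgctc
GGGAA on either strand occurred 2 times in the Mctp1, 1 time in the Mctp2, 2 times in the Atp2b4 and 0 times in the Atp1b1 window. The windows also differed in base composition, with a GC content of 40.7%, 62.0%, 47.7% and 71.0% and 2, 20, 4 and 31 CpG dinucleotides in the same order.

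Such a match is common. Of all 32851 RefSeq promoters of this length, 62.7% held GGGAA on either strand. A promoter entry was found for 74 of the 94 members, 103 promoters in all. GGGAA was in 6 of 15 promoters of members called higher, in 8 of 16 of members called lower and in 22 of 39 of tested members not called. GGAAA, the core bound by NFAT proteins, which overlaps GGGAA in the shared letters GGAA, was in 61.3% of all promoters, in 9 of 15 of members called higher, in 9 of 16 of those called lower and in 21 of 39 of those not called.

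Potassium channel genes were the largest family, with 31 members, of which 12 were tested, 3 were higher and 3 were lower. Kcna3 (chromosome 3, 107036169 to 107038070, plus strand) encodes Kv1.3, a voltage-gated channel that, with the calcium-activated channel encoded by Kcnn4, sets the membrane voltage of T cells. Kcna3 had 525, 481, 529, 512 and 525 in Helios+ libraries, against 361, 334, 343, 394 and 412 in Helios− libraries. All Helios+ values lay above all Helios− values (log2 change 0.48 ± 0.07 (SE), limma adjusted p = 1.44e-04). Kcnn4 had 1007, 1052, 956, 1044 and 1050 in Helios+ libraries, against 1100, 1116, 1181, 1118 and 1156 in Helios− libraries. Every Helios+ library lay below every Helios− library, yet the change of −0.15 was not called (limma adjusted p = 0.0661), whereas the fit with the replicate block called it lower (adjusted p = 0.0201). Per kilobase of annotated exon, Kcna3 had 270.4 ± 10.4 in Helios+ and 194 ± 17.4 in Helios− and Kcnn4 199.8 ± 8.02 in Helios+ and 222 ± 6.49 in Helios−, so the order of the channels differed between the populations. Kcna3 is annotated with 1902 exon bases and Kcnn4 with 5115. The levels per kilobase of both, and so their order, depend on this annotation, which may not be the one the authors counted with. By normalized count, Kcnn4 exceeded Kcna3 in every library. Kcna3 held 33.5% of the counts of both in Helios+ libraries (31.4% to 35.6%) and 24.5% in Helios− libraries (22.5% to 26.3%).

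Kcna2, which encodes a voltage-gated subunit related to Kcna3, moved the other way. It had 49.2, 50.2, 53.8, 50.5 and 45.2 in Helios+ libraries, against 105, 98.4, 96.1, 133 and 148 in Helios− libraries. The groups did not overlap, and the Helios+ values were tightly bunched (log2 change −1.19 ± 0.14 (SE), limma adjusted p = 1.14e-05). The genes Kcna3 and Kcna2 lie on the same strand of chromosome 3, 63.1 kilobases apart. Kcna2 held 8.83% of the summed counts of this pair in Helios+ libraries (7.93% to 9.45%) and 23.8% in Helios− libraries (21.9% to 26.4%).

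Kcnk6 (chromosome 7, 29221926 to 29232515, minus strand), a channel of the family with paired pore domains that carries background potassium current, was among the members with the largest rise. It had 53.4, 64.4, 76.1, 72.9 and 55.6 in Helios+ libraries, against 17.6, 12.7, 13.1, 9.41 and 11.7 in Helios− libraries. The groups were well separated (log2 change 2.25 ± 0.20 (SE), limma adjusted p = 5.40e-07). Kcnk5 of the same family had 34.4 ± 7.14 in Helios+ and 43.9 ± 6.4 in Helios− libraries and was not called (log2 change −0.36 ± 0.18 (SE), limma adjusted p = 0.174). Kcnq5, a subunit of slow voltage-gated channels known from neurons, had 148 ± 23.5 in Helios+ and 74.2 ± 15.5 in Helios− libraries and was higher without overlap (log2 change 1.00 ± 0.15 (SE), limma adjusted p = 1.21e-04).

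Kcnj16, an inward rectifier subunit, was low in both populations and lower in Helios+ cells. It had 1.05, 3.35, 7.69, 2.91 and 5.8 in Helios+ libraries, against 12.9, 21.2, 10.9, 18 and 36 in Helios− libraries. The groups did not overlap, but it passed the filter on the mean only through its Helios− values (log2 change −2.06 ± 0.43 (SE), limma adjusted p = 0.00213). Kcnmb4, an accessory subunit of large-conductance potassium channels, had 21.2 ± 6.45 in Helios+ and 34.6 ± 4.86 in Helios− libraries and was called lower with overlap (log2 change −0.72 ± 0.22 (SE), limma adjusted p = 0.0264), and the call was lost in 7 of the 15 fits that left out libraries: without Helios+ replicate 4 or 5, without Helios− replicate 1 or 2, and without replicate 1, 4 or 5 of both groups. Of its exon bases 31.5% are shared with other annotated genes, so its counts are uncertain. Kcnab2, the most abundant potassium channel subunit by normalized count, had 1198 ± 83 in Helios+ and 1301 ± 159.5 in Helios− libraries and was not called (limma adjusted p = 0.389).

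**Figure D3:**
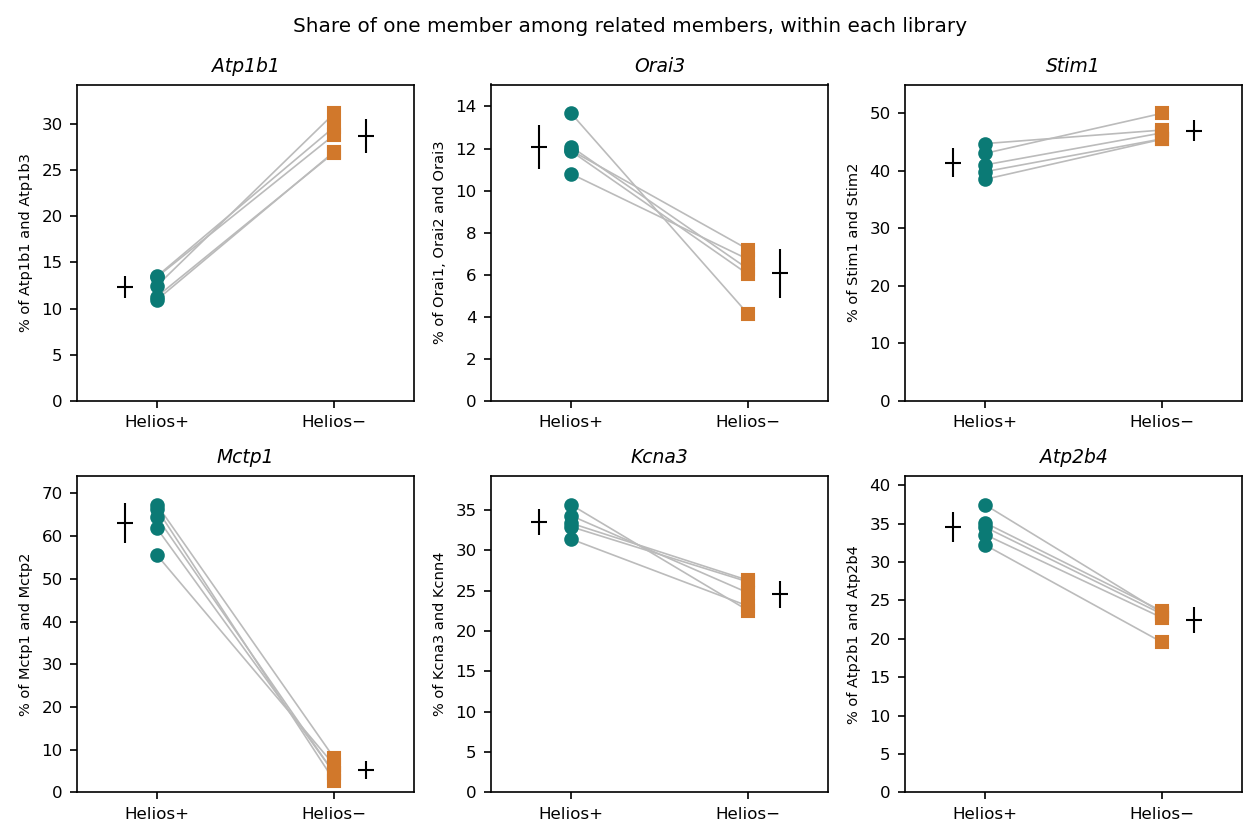
Share of 1 member in the summed normalized counts of related members (percent, vertical axis) in each Helios+ library (left) and Helios− library (right), with grey lines joining equal replicate numbers and black bars for the mean ± SD of 5 libraries. Shares of Orai3, Mctp1, Kcna3 and Atp2b4 were higher and shares of Atp1b1 and Stim1 lower in every Helios+ library than in any Helios− library.

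The ATP-gated channel gene P2rx7 (chromosome 5, 122643911 to 122691432, plus strand) was higher in Helios+ cells. Its product opens on extracellular ATP and, in mouse T cells, also after ART2 enzymes modify it with ADP-ribose from NAD. P2rx7 had 1079, 1332, 1096, 1176 and 1200 in Helios+ libraries, against 957, 816, 748, 865 and 834 in Helios− libraries. No Helios− library reached the lowest Helios+ library (log2 change 0.48 ± 0.08 (SE), limma adjusted p = 2.52e-04). The neighbouring gene P2rx4, 16.1 kilobases away on chromosome 5, had 108 ± 15.3 in Helios+ and 93.6 ± 21.5 in Helios− libraries and was not called (log2 change 0.22 ± 0.16 (SE), limma adjusted p = 0.355). Macrophages and B cells also express P2X receptors. Summed macrophage markers were 299 to 590 in Helios+ and 223 to 363 in Helios− libraries. Those of B cells were 1583 to 2225 in Helios+ and 1818 to 2565 in Helios− libraries. The ranges of the populations overlapped for both lists. The median log2 change of the tested markers was 0.35 for macrophages and monocytes and −0.24 for B cells. Of 6 tested macrophage markers 1 was called higher, Csf1r (61.6 ± 7.3 in Helios+ and 36.9 ± 5.84 in Helios− libraries, without overlap), and 0 lower. The part of these cells in the P2rx7 counts was not tested. P2rx1, P2rx3 and P2rx5 were under the filter.

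Genes for TRP channels, cation channels with many different gates, gave 2 calls among 7 tested, both higher. That is 28.6%, against 24.8% of all genes called in either direction. With the replicate block 2 TRP members were higher and 2 lower, against 18.9% and 18.5% of all genes. An unadjusted limma p under 0.05 without the block also gave 2 higher and 2 lower. Trpm1 (chromosome 7, 64153835 to 64269775, plus strand), known from melanocytes and from retinal bipolar cells, where it carries the light response, had 98.5, 73.6, 74.4, 84.5 and 85.8 in Helios+ libraries, against 21.1, 15.9, 6.55, 11.1 and 12.7 in Helios− libraries. The groups were far apart (log2 change 2.62 ± 0.25 (SE), limma adjusted p = 9.97e-07). Trpv2, a cation channel found in many immune cells, had 388, 432, 440.1, 365 and 465 in Helios+ libraries, against 359.6, 319, 354, 332 and 345 in Helios− libraries. The groups touched closely without overlapping (log2 change 0.28 ± 0.08 (SE), limma adjusted p = 0.0145), and the call was lost without replicate 2 of both groups (adjusted p = 0.0897) and without replicate 5 of both (adjusted p = 0.0766). Trpm7, a channel joined to a kinase that admits magnesium and calcium, had 1059 ± 45.6 in Helios+ and 1235 ± 169.6 in Helios− libraries, with a limma adjusted p of 0.0887, or 0.00482 with the replicate block, then called lower. It was called lower without the block when Helios− replicate 3 was left out (adjusted p = 0.00568) and when replicate 3 of both groups was (adjusted p = 0.0128). Trpm4, a sodium-permeable channel opened by calcium, had 51.2 ± 12.7 in Helios+ and 47.1 ± 18.8 in Helios− libraries and was not called. Trpc4ap, which the symbol pattern also takes, encodes a protein that binds a TRP channel and not a channel, and was not called with 1158 ± 114 in Helios+ and 1240 ± 99.3 in Helios− libraries.

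Trpc2 is listed among the TRP genes, but 100% of its exon bases are shared with other annotated genes. Its counts, 72.3 ± 25.6 in Helios+ and 115 ± 40.0 in Helios− libraries, therefore cannot be assigned to Trpc2 itself. It was not called (limma adjusted p = 0.0588), but was called lower with the replicate block (adjusted p = 1.01e-04).

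Subunits of voltage-gated calcium channels, which serve excitable cells, were mostly low. Of 13 members 6 were tested, 1 was higher and 1 lower. Cacna1d, a pore subunit of the L type, had 40.9, 54.4, 26.5, 47.6 and 30.1 in Helios+ libraries, against 16.4, 12.7, 6.55, 14.5 and 14.6 in Helios− libraries. The groups did not overlap, with wide spread in Helios+ (log2 change 1.56 ± 0.27 (SE), limma adjusted p = 5.13e-04). Cacnb1, a cytoplasmic beta subunit, had 99.5, 100.4, 75.2, 79.7 and 75.3 in Helios+ libraries, against 238, 214, 144, 179 and 154 in Helios− libraries. All Helios+ values were below all Helios− values (log2 change −1.09 ± 0.15 (SE), limma adjusted p = 4.59e-05). Cacnb3, another beta subunit, had 10.5 ± 7.24 in Helios+ and 11.4 ± 5.8 in Helios− libraries and was not called. Cacna1i, a pore subunit of the T type, had 74.9 ± 21 in Helios+ and 97.2 ± 16.8 in Helios− libraries and was called lower with the replicate block (adjusted p = 0.0122) and not without it (limma adjusted p = 0.125). Cacna2d4 and Cacna1a were not called.

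The sodium-potassium pump differed in its beta subunits, which carry the catalytic alpha subunit to the plasma membrane. Atp1b1 (GRCm38 chromosome 1, 164437109 to 164458355, minus strand) had 205, 273, 196, 158 and 197 in Helios+ libraries, against 704, 1004, 892, 749 and 812 in Helios− libraries. Every Helios+ library was far below every Helios− library, and the Helios− mean was 4.04 times that of Helios+ (log2 change −2.02 ± 0.13 (SE), limma adjusted p = 2.41e-08). Of the exon bases of Atp1b1, 18.7% are shared with Nme7 on the opposite strand, and the strand setting of the counting is not given in the sources used here. Atp1b3, the main beta subunit gene by level, had 1612, 1759, 1590, 1110 and 1261 in Helios+ libraries, against 1913, 2481, 2413, 1655 and 1924 in Helios− libraries. The groups overlapped, but each Helios+ library was below the Helios− library of its number (log2 change −0.51 ± 0.14 (SE), limma adjusted p = 0.0145). This call was lost without replicate 1 of both groups (adjusted p = 0.0517) and without replicate 5 of both (adjusted p = 0.057). Atp1b1 held 12.3% of the counts of both beta subunit genes in Helios+ libraries (10.96% to 13.5%) and 28.7% in Helios− libraries (26.9% to 31.2%). Per kilobase of exon, Atp1b3 had 614 ± 113 in Helios+ and 869 ± 149 in Helios− and Atp1b1 66.8 ± 13.5 in Helios+ and 270.1 ± 38.8 in Helios−.

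Phospholipid flippases keep phosphatidylserine on the inner side of the membrane. Of 7 tested members, 2 were lower and 0 were higher, also with edgeR and DESeq2 and at an unadjusted limma p under 0.05. The 2 calls are 28.6% of the tested flippases, against 24.8% of all genes called in either direction. Whether the family differs from other genes was not tested. Atp11b had 1831, 1895, 1858, 1815 and 1970 in Helios+ libraries, against 2467, 2419, 2152, 2339 and 2485 in Helios− libraries. No Helios+ library reached the lowest Helios− library (log2 change −0.34 ± 0.06 (SE), limma adjusted p = 6.52e-04). Atp8b4 was much less abundant, with 47.2 ± 8.91 in Helios+ and 73.2 ± 15.3 in Helios− libraries and overlapping groups (log2 change −0.62 ± 0.18 (SE), limma adjusted p = 0.0171). It lost its call without Helios− replicate 5 and without replicate 2, 4 or 5 of both groups, with adjusted p-values of 0.0527 to 0.0844. Atp11a, which flips phosphatidylserine at the cell surface, had 443 ± 48.9 in Helios+ and 437 ± 100.4 in Helios− libraries and was not called. Atp8a1, Atp8b2 and Atp8a2 were not called either.

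Genes of the CLC family, chloride channels and chloride-proton exchangers, gave 0 calls among 6 tested with limma, edgeR or DESeq2, and 1 at an unadjusted limma p under 0.05, Clcn5. Limma gave adjusted p-values of 0.0807 (Clcn5) to 0.624 (Clcn4-2). Clcn5, an endosomal exchanger, had 58.5 ± 10.7 in Helios+ and 43.1 ± 8.38 in Helios− libraries, with a 95% interval of the log2 change from 0.07 to 0.80. Clcn3, an exchanger of endosomes, had 429 ± 23.6 in Helios+ and 449.9 ± 39.8 in Helios− libraries. Clcn7, an exchanger of lysosomes, had 175 ± 27.8 in Helios+ and 202 ± 32.9 in Helios− libraries. The 95% intervals ran from −0.23 to 0.10 for Clcn3 and from −0.48 to 0.06 for Clcn7.

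**Figure D4:**
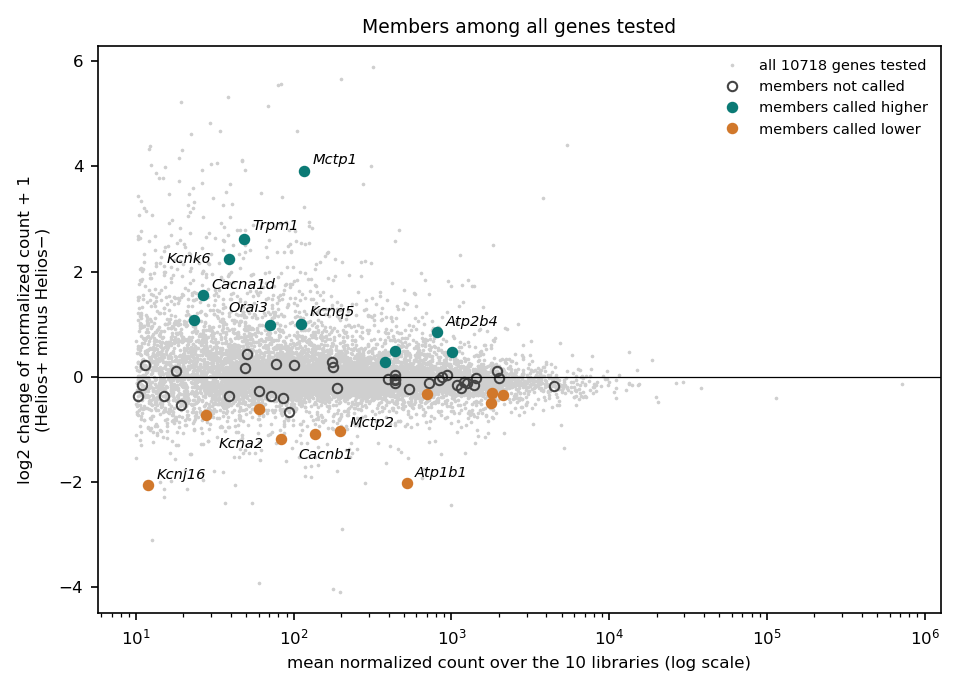
Log2 change of normalized count + 1 (vertical axis, Helios+ minus Helios−) against the average normalized count across all 10 libraries (log scale) for all 10718 genes tested (grey) and the 59 tested members. Mctp1 lies at 3.92 and Atp1b1 at −2.02, while members with a mean of at least 1000 lie between −0.51 and 0.48.

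The 13 members with a mean of at least 1000 had log2 changes between −0.51 (Atp1b3) and 0.48 (P2rx7). Of the 59 tested members, 45 had a mean of at least 50, and the median of the means was 189 for tested members and 172 for all genes tested. The 35 members under the filter had means of 0.957 to 9.48, and among them were 19 of the 31 potassium channel and 7 of the 13 voltage-gated calcium channel genes. The highest single value among them was 32.5, for Kcnj15, an inward rectifier. It had 13.6, 13.4, 12.8, 18.5 and 32.5 in Helios+ libraries, against 1.17, 1.06, 0, 0.855 and 0 in Helios− libraries. It was picked out after its values were seen, and a limma fit with no filter on the mean called it higher (adjusted p = 2.91e-06). That fit also called Kcnf1 (adjusted p = 0.0119) and Trpm6 (adjusted p = 0.042) higher and Clcn1 lower (adjusted p = 0.0412), all at means under 10. Trpc1 and Cacna1e, a TRP and a calcium channel subunit, were likewise too low to test.

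Other genes of these pathways moved in both directions, in lists that were chosen with earlier results known. Over all genes tested, 14.1% were called higher and 10.7% lower, or 18.9% and 18.5% with the replicate block. The counts of this list and the lists below were not tested against these shares. Of 22 tested genes of calcium and NFAT signalling, 3 were higher and 4 lower, or 4 and 5 with the replicate block, with a median log2 change of −0.09. The NFAT gene Nfatc1 had 3408 ± 138 in Helios+ and 2247 ± 125 in Helios− libraries (log2 change 0.60 ± 0.06 (SE), limma adjusted p = 2.82e-06), and Camk2d, a calmodulin-dependent kinase, was also higher (log2 change 0.38 ± 0.06 (SE), limma adjusted p = 1.92e-04). Ppp3ca, a catalytic subunit of calcineurin, had 323 ± 19.9 in Helios+ and 455 ± 66.5 in Helios− libraries (log2 change −0.48 ± 0.10 (SE), limma adjusted p = 0.00182). Rcan3, a regulator of calcineurin, was also lower (log2 change −0.51 ± 0.09 (SE), limma adjusted p = 4.81e-04). Camk4 and Dyrk2 were lower and Calm2 was higher, while Nfatc2 and Nfatc3 were not called.

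Of 19 tested genes of calcium stores and mitochondria, 2 were higher and 2 lower, or 6 and 3 with the replicate block, with a median of 0.06. Cd38, an enzyme that makes calcium-releasing messengers from NAD, had 194 ± 28.8 in Helios+ and 92.1 ± 22.1 in Helios− libraries (log2 change 1.09 ± 0.16 (SE), limma adjusted p = 8.10e-05). Tmem66, also named Saraf, which inactivates store-operated entry, had 934 ± 113 in Helios+ and 1630 ± 322 in Helios− libraries (log2 change −0.79 ± 0.13 (SE), limma adjusted p = 3.19e-04). Ccdc109b, also named Mcub, a subunit that dampens the mitochondrial calcium uniporter, was higher (log2 change 0.86 ± 0.16 (SE), limma adjusted p = 9.84e-04). Tpcn1, a channel of endosomes and lysosomes, was lower (log2 change −0.29 ± 0.07 (SE), limma adjusted p = 0.00432).

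Among 9 tested partners of pumps and flippases and related lipid movers, 3 were higher and 1 lower, or 3 and 2 with the block, with a median of 0.05. Tmem30a, the chaperone subunit of most flippases, had 773 ± 65.4 in Helios+ and 747 ± 66 in Helios− libraries and was not called. The scramblase family gene Plscr1 had 97.9 ± 15.9 in Helios+ and 13.3 ± 5.68 in Helios− libraries (log2 change 2.89 ± 0.28 (SE), limma adjusted p = 1.19e-06). The drug efflux pumps Abcb1a (log2 change 1.40 ± 0.09 (SE), limma adjusted p = 2.94e-08) and Abcc1 (log2 change 0.38 ± 0.08 (SE), limma adjusted p = 0.00171) were also higher. Ano6, a calcium-activated scramblase, was lower (log2 change −0.21 ± 0.07 (SE), limma adjusted p = 0.0382).

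Of 22 tested genes of cell volume and ion transport, 6 were higher and 3 lower, or 6 and 4 with the block, with a median of −0.02. Slc12a2, a sodium-potassium-chloride cotransporter, had 264 ± 17.6 in Helios+ and 121 ± 12.3 in Helios− libraries (log2 change 1.12 ± 0.09 (SE), limma adjusted p = 2.85e-07). Stk39, a kinase that activates this cotransporter, was higher too (log2 change 0.47 ± 0.08 (SE), limma adjusted p = 5.74e-04), as were the bicarbonate transporter Slc4a7 (log2 change 0.58 ± 0.08 (SE), limma adjusted p = 5.34e-05) and the magnesium transporter Slc41a1 (log2 change 0.72 ± 0.11 (SE), limma adjusted p = 1.42e-04). Wnk1, the kinase upstream of Stk39, showed a log2 change of −0.01 and no call. The 3 lower genes were Lrrc8a, a subunit of the volume-regulated anion channel (log2 change −0.38 ± 0.08 (SE), limma adjusted p = 0.00309), the proton channel gene Hvcn1 (log2 change −0.30 ± 0.07 (SE), limma adjusted p = 0.00793) and the potassium-chloride cotransporter Slc12a7 (log2 change −0.31 ± 0.08 (SE), limma adjusted p = 0.0128).

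A list built around extracellular nucleotides and adenosine held 9 tested genes. Of these, 4 were higher and 2 lower, or 5 and 2 with the block, with a median of 0.24. Not all of them handle nucleotides outside the cell, and Pde3b is among those that do not. Entpd1, which encodes CD39 and breaks down the ATP that opens P2X channels, had 267 ± 29.5 in Helios+ and 112 ± 10.9 in Helios− libraries (log2 change 1.24 ± 0.10 (SE), limma adjusted p = 2.22e-07). Nt5e, which encodes CD73 and makes adenosine, had 1452 ± 144 in Helios+ and 710.3 ± 121 in Helios− libraries (log2 change 1.04 ± 0.11 (SE), limma adjusted p = 3.38e-06), and the adenosine receptor Adora2a was higher as well (log2 change 1.63 ± 0.13 (SE), limma adjusted p = 1.87e-07). Pde3b, which breaks down the cyclic AMP that such receptors raise, was lower (log2 change −1.65 ± 0.09 (SE), limma adjusted p = 2.85e-09). Art2a-ps, by its symbol a pseudogene, was higher, at 38.6 ± 10.7 in Helios+ and 4.13 ± 3.2 in Helios− libraries. It passed the filter on the mean only through its Helios+ values. Ada was lower. Art2b encodes an enzyme of the family that modifies P2rx7 in mouse T cells. Its counts were 400.4 ± 50.7 in Helios+ and 370.2 ± 73.9 in Helios− libraries, and it was not called.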

How the data were processed

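The authors deposited 1 table of normalized counts for 13252 genes in 5 Helios+ and 5 Helios− libraries, a signal that is never negative. Libraries were made from total RNA with a stranded low-input kit, per the labels' protocols. Per the submitters' processing notes, mm10, HISAT2 2.0.4, HTSeq and DESeq2 were used, with no role stated. Annotation and strand setting: not given in the sources used here. In each library 100% of values were whole multiples of the value of 1 read, within a tolerance of 0.001, so whole reads could be recovered.

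Genes with a mean of at least 10 (10718, leaving out 2534) were tested on log2(normalized count + 1) with limma 3.58.1 in R 4.3.3 (trend and robust, group only), with Benjamini-Hochberg adjustment over all of them and calls under 0.05. The test was checked on simulated data. Alternatives were TMM scaling (edgeR 4.0.16), quantile and cyclic loess normalization, other pseudocounts and filters, edgeR and DESeq2 1.42.0 on the recovered reads, a replicate block, and leaving out libraries. Named members were 41 core genes, of which Piezo1 was not analysed here, plus called members with the largest changes, up to 12 each way. From each list of related genes the 4 with the smallest p were named, and from each marker list the 2 most abundant. Others are named where a count is 5 or fewer, or as examples chosen after their values were seen. Some members are counted but not reported one by one here. The members and lists were chosen with earlier results of these data known.

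Equal replicate numbers were taken to pair libraries, since deviations from the group means correlated at 0.48, 0.19, 0.39, 0.16 and 0.15 for numbers 1 to 5, all over 0.1, and every library correlated best with its own number. Exon lengths, overlaps and coordinates are from GENCODE for GRCm38, the assembly that mm10 names, and promoters are from RefSeq on GRCm38.p6. Intervals are 95% intervals of limma over libraries.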

Additional observations from a re-analysis of the deposited data

Results flagged for a closer look

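Among 84 groups of 5 libraries (each tested member that falls under the naming rule and is reported one by one, in each population), 3 held a library whose gap to the others was large for the range of its group by Dixon's test. Chance flags about 1 in 20 such groups. Orai2 was at 607 in Helios+ replicate 5, against 456 to 494 in the other 4 Helios+ libraries, and Orai3 was at 123 in the same library, against 84.9 to 94.9. Cacnb3 was at 23.1 in Helios+ replicate 1, against 4.27 to 8.74.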

How the results depend on the processing

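Of the 22 called members, 16 kept their call and direction under all 25 alternatives and none changed direction. Counts of higher and lower members were 11 and 11 with edgeR, 11 and 15 with DESeq2 and 14 and 12 with no filter. Counts over all genes are not given here for the other tools and filters, nor for most fits that left out libraries. The member counts in those fits therefore do not show whether members moved more than other genes. A mean of at least 50 left 7 higher, since fewer genes were tested. With the replicate block as pairing, 18 were called lower, and no call was lost. Leaving out libraries gave 10 to 12 higher and 7 to 14 lower, the 7 without replicate 4 of both groups. Over all genes, 1143 were called lower, or 1979 with the replicate block and 748 without replicate 4. DESeq2 also called Itpr2, Atp2a3, Kcnn4 and Trpc2 lower, and quantile normalization called Kcnk5 lower (adjusted p = 0.043).

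Members not called changed sign around 0: the log2 change of Stim2 was 0.00451 with TMM, 0.0365 with quantile and 0.056 with loess normalization and 0.000464 with edgeR, that of Itpr1 0.0524 with quantile and 0.0492 with loess, that of Atp2b1 0.0734 with quantile and 0.0783 with loess, and that of Trpm4 −0.00392 with quantile normalization. Leaving out libraries moved Stim2 from −0.0397 to 0.0275, Itpr1 from −0.0703 to 0.0173, Atp2b1 from −0.061 to 0.0498, Atp11a from −0.0494 to 0.162, Atp2c1 from −0.0847 to 0.0466 and Cacnb3 from −0.463 to 0.106. Kcnmb4 lost its call in 7 fits that left out libraries, with adjusted p-values of 0.0537 to 0.0955. The cause of these shifts was not tested. The 35 members under the filter were left out of the main fit, and 4 of them were called with no filter. Whether depth limited them was not tested.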
